A study of Mus musculus with 6 samples.

Results

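Chemokine ligands are small secreted or membrane-bound proteins that guide leukocytes. They were taken here as every gene of the array's annotation named Ccl or Cxcl with a number, plus Cx3cl1 and Xcl1. The rule found 40 such genes, of which 34 had a probe set assigned to that gene alone and were measured, among 19938 genes measured in this way on the array. The other 6, Ccl21a, Ccl21b, Ccl21c, Ccl21d, Ccl27a and Ccl27b, are near-identical copies that share probe sets. Where a gene had several probe sets of its own, the one with the highest mean over the 6 arrays stood for it, and no gene was left out for a dim signal.

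The cells were dendritic cells grown from the marrow of female C57BL/6J mice. Each recipient had been injected with 2000000 bone marrow cells of a congenic B6.SJL-Ptprca donor, which carries the CD45.1 form of a leukocyte surface antigen. Donors were either naive (3 arrays, "naive-donor") or had been exposed on shaved back skin to UVB-rich ultraviolet light of up to 8 kJ/m2 (3 arrays, "UV-donor"), and mice of the study were generally 6 to 10 weeks old when irradiated. Both groups shared the culture of 5 days with 10 ng/ml of GM-CSF and of IL-4, and magnetic enrichment to over 95% CD11c+ cells. The cultures may hold cells of recipient as well as donor origin, and the arrays do not tell them apart. The labels give triplicate preparations and do not say whether they came from separate mice, so p-values measure the spread between preparations, which may be technical. In such bulk preparations a change in the number of cells that make a transcript and a change in transcript per cell cannot be told apart.

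Ligands fall by their first cysteines into CC, CXC, CX3C and XC kinds and act through G protein-coupled receptors on the responding cell. CXC ligands with a glutamate-leucine-arginine (ELR) motif draw neutrophils through CXCR2. Many CC ligands draw monocytes, T cells and eosinophils, and another group keeps lymphocytes in place in lymphoid tissue. Dendritic cells both follow chemokines and make them. IL-4 is a known inducer of Ccl17, Ccl22 and Ccl24, whereas NF-kB drives the ELR ligands after inflammatory signals.

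The arrays were alike in overall signal, with array medians from 7.16 to 7.23 on the log2 scale, and the interquartile range was wider on the UV-donor arrays (3.71 to 3.75) than on the naive-donor arrays (3.61 to 3.68). Checked against its markers, the labelled cell type had bright signals of Itgax, which encodes CD11c (mean 13.75), and of the class II genes H2-Ab1, H2-Eb1 and Cd74 (12.62 to 13.57), while Flt3, a receptor of steady-state dendritic cells, was dim at 6.52. Over all 19938 genes 23, or 0.115%, passed the test at an adjusted p under 0.05, all of them higher in the UV-donor group (limma, two-sided, Benjamini-Hochberg). That count was 0 without naive-donor replicate 2, naive-donor replicate 3 or UV-donor replicate 2, so each call named below is lost there.

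Cxcl2, which draws neutrophils, had the largest difference among the ligands, 1.33-fold higher in signal in the UV-donor group, and it fell short of the threshold after adjustment over all genes. A small set of other ligands, Cxcl14, Cxcl17, Ccl26, Ccl11 and Ccl20, had lower values by up to 0.31 on the log2 scale, also short of the threshold. Of the 7 ligands with the brightest signals in this culture, Ccl17, Ccl22, Ccl3, Ccl5, Ccl6 and Ccl9 differed by at most 0.05 between the groups, and Ccl24 by -0.10. No ligand passed the adjusted test, so 0 of 34 stand beside the 0.115% of all genes.

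At an unadjusted p under 0.05, 1 of the 34 ligands was higher, or 2.94%, against 7.02% of all genes, and 5 were lower, or 14.7%, against 6.18%. The median difference of the ligands was -0.032 and that of all genes -0.011. Groups did not overlap for 8 ligands (23.5%), against 19.6% of all genes. Of these ligands 1 was higher (9.53% of all genes) and 7 were lower (10.1%). Of the 34 ligands, 24 differed by no more than 0.1 in either direction, and 20 had a 95% interval lying within 0.25 of no difference.

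**Figure D1:**
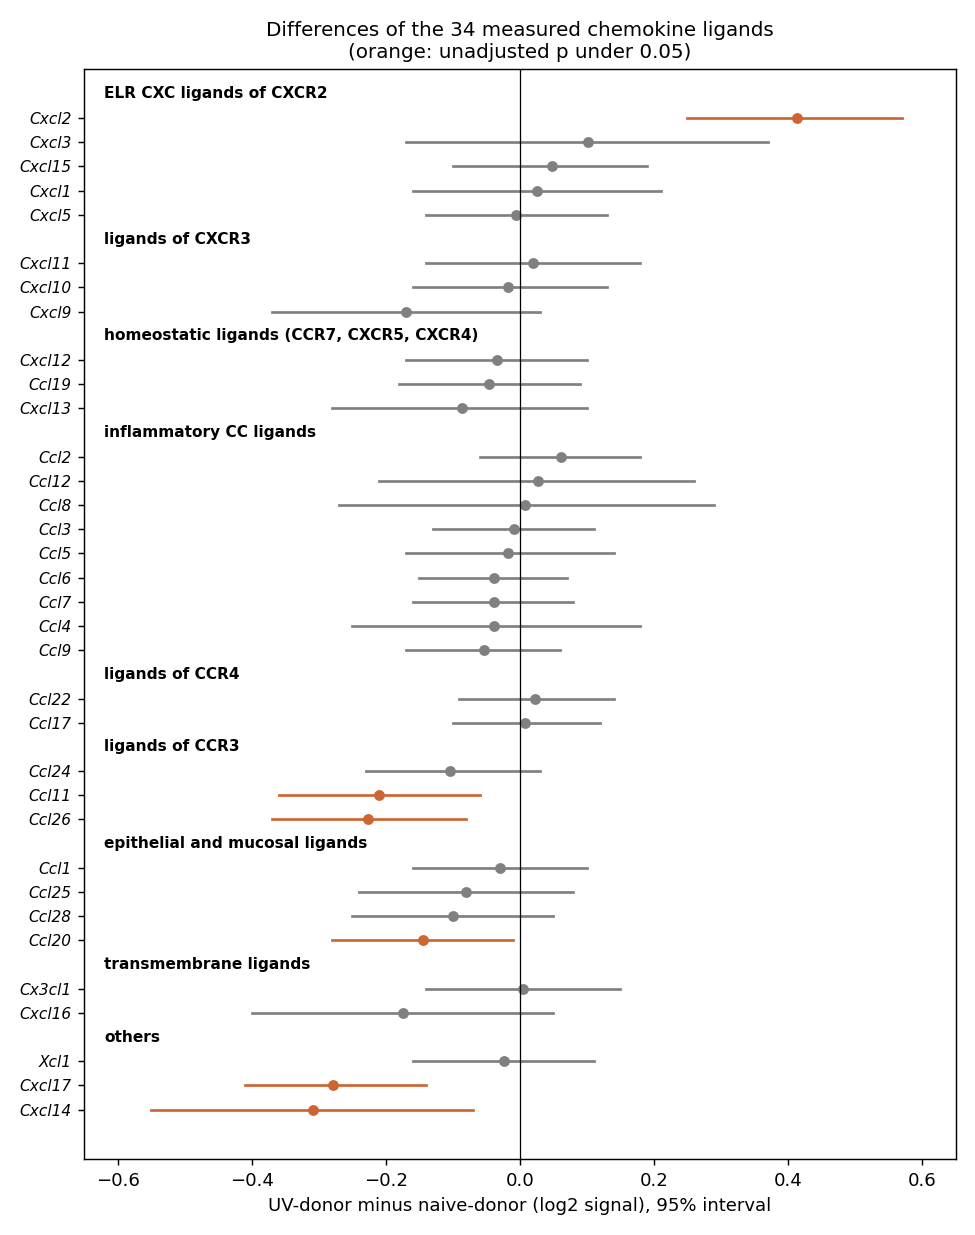
UV-donor minus naive-donor difference in log2 signal (x axis) of the 34 measured chemokine ligands (y axis), grouped by ligand class. Points are limma estimates and lines their 95% intervals (3 arrays a group). Cxcl2 lies at 0.41 and the 5 other orange ligands, with an unadjusted p under 0.05, between -0.31 and -0.14.

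The neutrophil-attracting ELR ligands come first. Cxcl2 (MIP-2, a ligand of CXCR2) had log2 signals of 7.71, 7.74 and 7.85 on the naive-donor arrays and 8.17, 8.29 and 8.08 on the UV-donor arrays. Each UV-donor array was above each naive-donor array, and no other ligand was higher in this way. The means were 7.77 ± 0.08 and 8.18 ± 0.11 (SD, n = 3 each), and they lay 0.41 apart (SE 0.07, 95% interval 0.25 to 0.57). By limma its adjusted p was 0.0953. With each array left out in turn the difference stayed between 0.36 and 0.46, with limma adjusted p-values from 0.134 to 0.324. Among genes with a signal at or above the median, as Cxcl2 has, 10.8% were higher at an unadjusted p under 0.05.

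Cxcl1 (KC), a second CXCR2 ligand and the neighbouring gene, had signals of 7.32, 7.54 and 7.63 on the naive-donor arrays and 7.51, 7.47 and 7.59 on the UV-donor arrays. These overlapped fully, and the difference was 0.02 (95% interval -0.16 to 0.21). Cxcl3, which acts on the same receptor, had 8.64, 8.69 and 8.78 against 8.52, 8.85 and 9.05. Its UV-donor replicate 1 lay below all the naive-donor arrays and the other two above them. The difference was 0.10 (interval from -0.17 to 0.37; adjusted p = 0.751 by limma), and it was 0.24 without UV-donor replicate 1 (limma adjusted p = 0.326) and -0.02 without UV-donor replicate 3. The remaining ELR ligands, the epithelial Cxcl5 (mean 5.74) and the lung ligand Cxcl15 (mean 4.58), were dim and differed by -0.01 and 0.05.

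Whether Cxcl2 moved apart from its relatives was examined by the gap between probe sets on the same array, for 2 pairs chosen after the values were seen. The gap of Cxcl2 to Cxcl1 was 0.27 ± 0.11 without and 0.66 ± 0.17 with UV-exposed donors (SD over 3 arrays), higher on every UV-donor array, and a two-sided exact permutation test gave p = 0.1, the smallest that 3 arrays against 3 allow. For Cxcl2 against Cxcl3 the gap went from -0.94 ± 0.02 to -0.63 ± 0.32 with overlapping groups (exact permutation p = 0.4). A different response of Cxcl2 and Cxcl3 is therefore not shown. Nor is one of Cxcl2 and Cxcl1, since that pair was chosen from the values and the test could not go below 0.1.

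**Figure D2:**
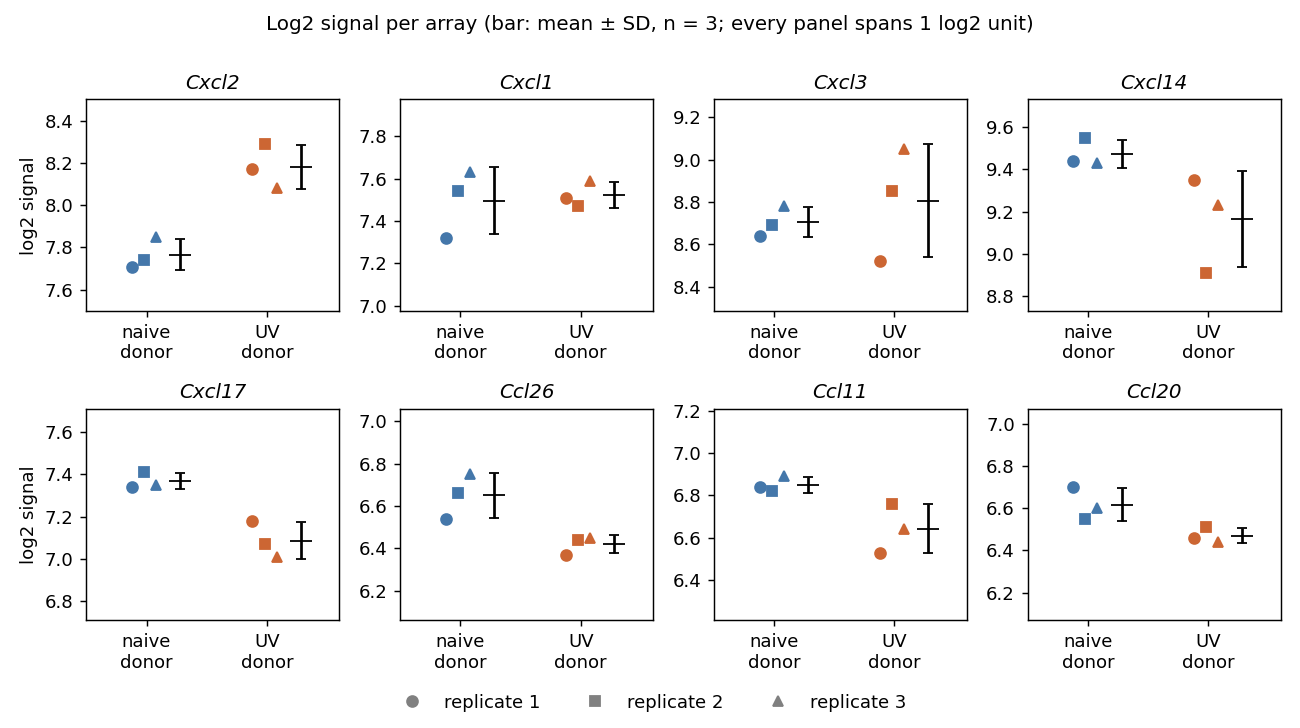
Log2 signal (y axis) on each array of the naive-donor and UV-donor groups (x axis) for Cxcl2, Cxcl1, Cxcl3 and the 5 ligands lower at an unadjusted p under 0.05. Symbols are single arrays by replicate number and bars the mean ± SD (n = 3). Cxcl2 lies at 8.08 to 8.29 in the UV-donor group against 7.71 to 7.85, while the groups of Cxcl1 and Cxcl3 overlap.

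The 3 ligands share a regulatory feature at their start sites. RefSeq start-site windows of GRCm38.p6, from 250 bases before to 50 bases after an annotated start, were at hand for 23 of the 34 ligands. Ccl2, Ccl4, Ccl5, Ccl7, Ccl11, Ccl24, Ccl26, Cxcl5, Cxcl11, Cxcl16 and Cxcl17 had no entry. The windows of Cxcl2, Cxcl1 and Cxcl3 are shown because these neighbours carry the same 10 letters of an NF-kB motif. Of the 3 only Cxcl2 was higher at an unadjusted limma p under 0.05. A response of Cxcl2 that differs from that of Cxcl1 or Cxcl3 is not shown. Capitals mark every match to the NF-kB consensus on either strand. Matches on the plus and minus strand overlap here by all but 1 base, so the capitals span 11 bases.
Cxcl2 (chr5:90903649-90903948, + strand): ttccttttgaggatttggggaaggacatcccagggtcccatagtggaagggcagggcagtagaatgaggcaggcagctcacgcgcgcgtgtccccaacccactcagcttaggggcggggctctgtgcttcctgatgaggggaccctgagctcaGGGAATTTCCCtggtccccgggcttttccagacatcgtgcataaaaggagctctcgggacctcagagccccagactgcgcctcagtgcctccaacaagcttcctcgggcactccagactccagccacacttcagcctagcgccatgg
Cxcl1 (chr5:90890995-90891294, + strand): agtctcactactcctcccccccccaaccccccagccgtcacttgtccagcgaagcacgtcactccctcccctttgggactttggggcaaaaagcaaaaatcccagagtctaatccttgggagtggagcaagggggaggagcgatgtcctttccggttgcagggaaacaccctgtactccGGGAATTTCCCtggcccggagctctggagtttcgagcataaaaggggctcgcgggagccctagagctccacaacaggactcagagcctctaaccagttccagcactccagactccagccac
Cxcl3 (chr5:90785851-90786150, + strand): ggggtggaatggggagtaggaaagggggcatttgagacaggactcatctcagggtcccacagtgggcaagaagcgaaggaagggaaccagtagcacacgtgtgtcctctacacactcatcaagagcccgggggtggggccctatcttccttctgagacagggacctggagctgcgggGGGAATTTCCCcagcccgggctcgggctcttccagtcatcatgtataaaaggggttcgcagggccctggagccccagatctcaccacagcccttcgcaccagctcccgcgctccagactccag

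The letters GGGAATTTCC begin 97 bases before the start of Cxcl2, 71 before that of Cxcl1 and 73 before that of Cxcl3. These letters were taken from the match in the Cxcl2 window, so a hit there was fixed in advance. They are in 29 of all 32851 windows, or 0.0883%, on either strand, and in these 3 among the 24 windows of the ligands. An enrichment was not tested. The looser consensus was found in 7 of the 24 windows, those of Cxcl1, Cxcl2, Cxcl3, Cxcl10, Ccl1, Ccl9 and Ccl20, against 8.46% of all windows. The windows were aligned on the motif without gaps, and the 20 bases on each side were compared position by position. Before the motif, Cxcl1 and Cxcl2 were identical at 11 positions, Cxcl1 and Cxcl3 at 6, and Cxcl2 and Cxcl3 at 4. After the 10 letters the counts were 8, 9 and 7. A shift of a few bases lowers such a count, so these counts do not rank the windows by likeness. A match describes letters in the window and not binding. Of these 7 genes Cxcl2 was higher and Ccl20 lower in value at an unadjusted p under 0.05, and the other 5 differed by -0.05 to 0.10.

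On chromosome 5 the ELR genes lie side by side with 2 relatives under other names, in the order Cxcl5, Ppbp, Pf4, Cxcl3, Cxcl15, Cxcl1 and Cxcl2. The platelet chemokines Ppbp (difference 0.34, SE 0.14) and Pf4 (0.21, SE 0.08) were also higher at an unadjusted p under 0.05 and not after adjustment (limma adjusted p = 0.343 and 0.325). Among this run of 7 genes 3 were thus higher at that level, and 4, Cxcl5, Cxcl3, Cxcl15 and Cxcl1, were not. Of all genes 7.02% were higher at that level. The share was 10.8% among genes at or above the median signal, where Cxcl2, Ppbp and Pf4 lie. The run was looked at with the values known, and no test of it was made.

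Next come the ligands with lower values. Cxcl14, a ligand made by epithelium and skin that attracts myeloid cells, had signals of 9.44, 9.55 and 9.43 on the naive-donor arrays and 9.35, 8.91 and 9.23 on the UV-donor arrays. All UV-donor arrays were lower, and UV-donor replicate 2 lay farthest down. The difference was -0.31 (SE 0.10, interval from -0.55 to -0.07; adjusted p = 0.279 by limma), and -0.18 without UV-donor replicate 2 (limma adjusted p = 0.363). Among genes at or above the median signal, where Cxcl14 lies, 2.81% were lower at an unadjusted p under 0.05. No NF-kB consensus was found in its start-site window.

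Among other motifs searched on both strands of the 24 windows, the STAT6-type motif TTCNNNNGAA, of the factor that acts after IL-4, was found in that of Ccl17 alone, against 6.95% of all, and the TATA box TATAAA in windows of 9 ligands, against 13.6% of all windows.

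Cxcl17, a mucosal chemokine, had signals of 7.34, 7.41 and 7.35 on the naive-donor arrays and 7.18, 7.07 and 7.01 on the UV-donor arrays. The groups did not overlap, and the difference was -0.28 (SE 0.06, interval from -0.41 to -0.14; adjusted p = 0.161 by limma). Both eotaxin-type genes with dim signals were low as well. Ccl11 (eotaxin-1, an attractant of eosinophils through CCR3) had 6.84, 6.82 and 6.89 against 6.53, 6.76 and 6.64, a difference of -0.21 (limma adjusted p = 0.252). Ccl26, named for its likeness to human eotaxin-3, had 6.54, 6.66 and 6.75 against 6.37, 6.44 and 6.45, a difference of -0.23 (limma adjusted p = 0.22).

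Ccl24 (eotaxin-2), the neighbour of Ccl26 and the bright member of the CCR3 ligands, had 13.11, 12.98 and 12.97 against 12.89, 12.95 and 12.91. Its groups did not overlap, and the difference was -0.10 (interval from -0.23 to 0.03, adjusted p = 0.467 by limma), or -0.06 without naive-donor replicate 1. All 3 CCR3 ligands thus had lower values on each UV-donor array, with 2 of them lower at an unadjusted p under 0.05. Ccl20, which draws CCR6-bearing cells to mucosa, had 6.70, 6.55 and 6.60 against 6.46, 6.51 and 6.44, a difference of -0.14 (limma adjusted p = 0.339), and -0.10 without naive-donor replicate 1 (unadjusted p = 0.129).

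Dim signals were in general lower in the UV-donor group, which bears on 4 of these 5 ligands. Cxcl17, Ccl11, Ccl26 and Ccl20 lay below the median signal of all genes (7.73). Of the 9969 genes below it, 952 (9.55%) had lower and 325 (3.26%) higher values at an unadjusted p under 0.05, with a median difference of -0.042. Among the 9969 at or above it, 280 (2.81%) were lower and 1075 (10.8%) higher, with a median of 0.018. Of the 19 ligands below the median signal 4 were lower (21.1%) and 0 higher, and their median difference was -0.034. The 4 ligands kept their direction under every other setting in which they were tested. With all 6 arrays Cxcl17 ran from -0.30 to -0.24, Ccl26 from -0.23 to -0.18, Ccl11 from -0.21 to -0.17 and Ccl20 from -0.14 to -0.096. With single arrays left out they ran from -0.33 to -0.24, -0.28 to -0.18, -0.27 to -0.15 and -0.18 to -0.10. Under the scalings Ccl20 had an unadjusted limma p of 0.0961 with array medians centred, 0.132 with quantile normalization and 0.134 with cyclic loess. The part of the signal-dependent shift in these differences was not tested.

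**Figure D3:**
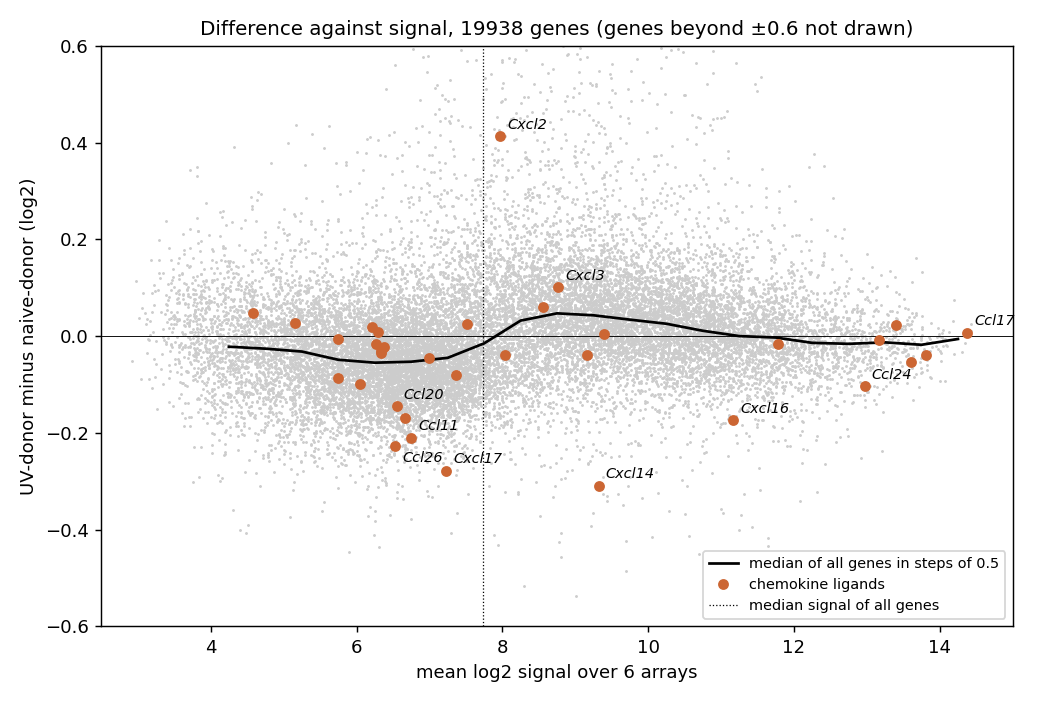
Difference in log2 signal, UV-donor minus naive-donor (y axis), against the mean log2 signal over 6 arrays (x axis) for 19938 genes (grey) and the chemokine ligands (orange). The black line is the median of all genes in steps of 0.5 and the dotted line the median signal of 7.73; the 86 genes beyond 0.6 in either direction are not drawn. The black line is below 0 at dim signals, where Cxcl17, Ccl26, Ccl11 and Ccl20 lie, and Cxcl2 stands well above it.

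The ligands with the brightest signals are described next. Signals of different probe sets do not rank transcripts by abundance, so the order of brightness describes the array only. Of the ligands 7 were among the top 10% of all gene signals, namely Ccl17, Ccl6, Ccl9, Ccl22, Ccl3, Ccl5 and Ccl24, whose values are given above.

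The CCR4 ligands Ccl17 (TARC) and Ccl22 (MDC), which draw Th2 and regulatory T cells, were 2 of these 7. Ccl17 had 14.38, 14.35 and 14.39 on the naive-donor arrays and 14.41, 14.37 and 14.37 on the UV-donor arrays, a difference of 0.01 (95% interval -0.10 to 0.12). Ccl22 had 13.41, 13.34 and 13.41 against 13.39, 13.45 and 13.39, a difference of 0.02 (-0.09 to 0.14). The groups overlapped for both, and at 95% a rise beyond 0.14 lies outside either interval.

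The inflammatory CC ligands, which attract monocytes, macrophages and activated T cells, held 9 measured genes, 3 with higher and 6 with lower values, none at an unadjusted p under 0.05. Ccl3 (MIP-1 alpha) had 13.20, 13.17 and 13.15 against 13.15, 13.24 and 13.12, a difference of -0.01. Ccl4 (MIP-1 beta), the neighbouring gene, had 9.26, 9.10 and 9.16 against 8.92, 9.27 and 9.22, a difference of -0.04 with UV-donor replicate 1 lowest. Ccl5 (RANTES) had 11.92, 11.75 and 11.71 against 11.85, 11.75 and 11.73, a difference of -0.02 (95% interval -0.17 to 0.14).

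The rodent CCR1 ligands Ccl6 and Ccl9 differed little. Ccl6 had 13.81, 13.85 and 13.84 against 13.79 on each UV-donor array, so that the groups did not overlap although the difference was only -0.04 (interval from -0.15 to 0.07, adjusted p = 0.752 by limma). Ccl9 had 13.65, 13.60 and 13.67 against 13.55, 13.58 and 13.62, a difference of -0.05 (-0.17 to 0.06). The monocyte attractants of CCR2, Ccl2 (MCP-1, mean 8.56), Ccl7 (8.03) and Ccl12 (5.15), differed by 0.06, -0.04 and 0.03. Ccl8 (6.30) differed by 0.01 with a wide interval of -0.27 to 0.29, since naive-donor replicate 3 was high at 6.61 against 6.08 and 6.20 on the other naive-donor arrays.

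Both membrane-bound ligands, which can be shed by proteases, had overlapping groups. Cxcl16, the ligand of CXCR6 and a scavenger receptor of dendritic cells and macrophages, had 11.31, 11.07 and 11.37 against 10.92, 11.23 and 11.07, a difference of -0.17 (interval from -0.40 to 0.05, adjusted p = 0.48 by limma). The difference ran from -0.27 to -0.10 as single arrays were left out, at -0.27 without naive-donor replicate 2 and -0.10 without UV-donor replicate 1. Cx3cl1 (fractalkine), the ligand of CX3CR1, had 9.47, 9.28 and 9.43 against 9.33, 9.45 and 9.42, with means of 9.39 and 9.40 and an interval from -0.14 to 0.15.

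The interferon-induced CXCR3 ligands, which draw effector T and NK cells, were dim. Cxcl9 (mean 6.67) differed by -0.17 (95% interval -0.37 to 0.03), with UV-donor replicate 2 at 6.39 and all other arrays between 6.59 and 6.78. Cxcl10 (6.26) and Cxcl11 (6.21) differed by -0.02 and 0.02. The homeostatic ligands Ccl19 (7.0, for CCR7), Cxcl12 (6.34, for CXCR4) and Cxcl13 (5.75, for CXCR5) differed by -0.05, -0.03 and -0.09, all with overlapping groups. So did the epithelial ligands Ccl25 (7.37, for CCR9) and Ccl28 (6.05, for CCR10), at -0.08 and -0.10. Ccl1 (6.33, for CCR8) and Xcl1 (6.37, for XCR1) differed by -0.03 and -0.02, also with overlapping groups.

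Genes with several probe sets gave the same picture. The 5 probe sets of Ccl19 differed by -0.05 to -0.03 and the 2 of Ccl25 by -0.08 and -0.09. Probe sets shared by the Ccl21 copies (mean 6.86) differed by -0.01, and those shared by Ccl27a and Ccl27b (7.13 and 7.77) by -0.08 and -0.09. None had an unadjusted limma p under 0.2.

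**Figure D4:**
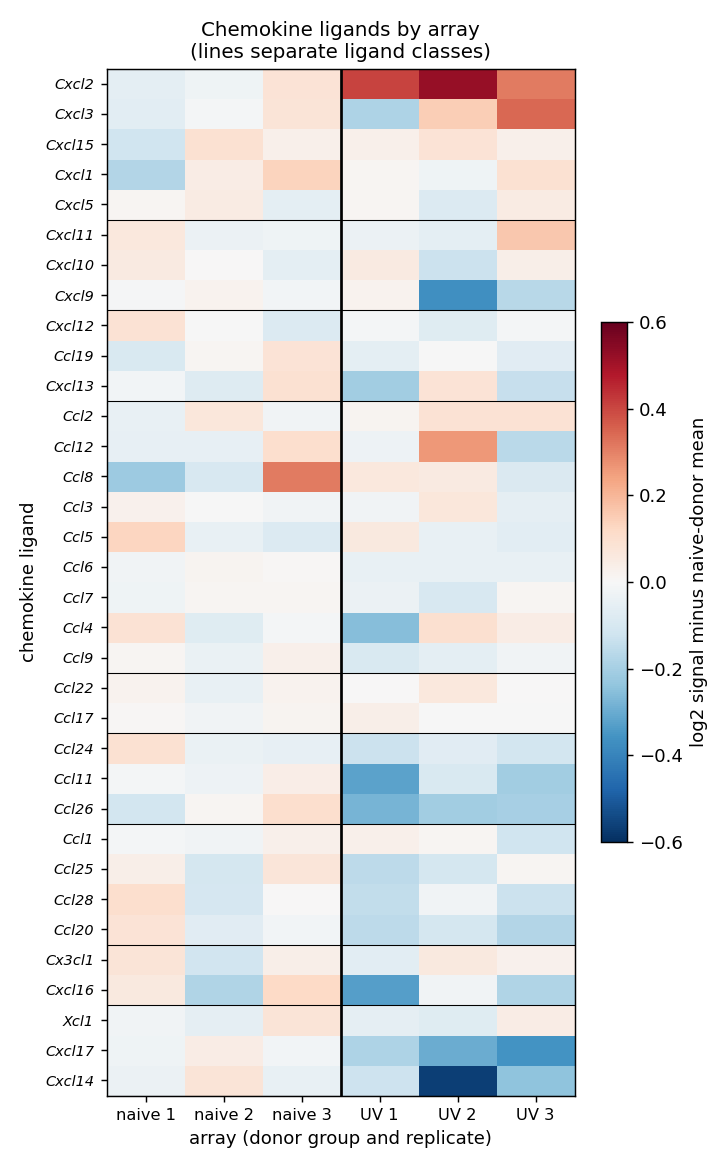
Log2 signal of the 34 measured chemokine ligands (y axis) on the 6 arrays (x axis), as the deviation from the naive-donor mean of the gene, in red where higher and blue where lower. Horizontal lines part the ligand classes. The extreme cells are both on UV-donor replicate 2, Cxcl2 at 0.52 and Cxcl14 at -0.56.

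The receptors of these ligands were described next to them. Of 18 measured chemokine receptors 1 passed the adjusted test. At an unadjusted p under 0.05, 3 were higher and 2 lower, beside 7.02% and 6.18% of all genes. Ccr4, the receptor of Ccl17 and Ccl22, rose by 0.49 (SE 0.05, limma adjusted p = 0.0237) while its ligands differed by 0.01 and 0.02. Below the median signal of all genes lay 13 of the 18 receptors, Ccr4 (mean 6.87) among them. Cxcr2, the receptor of the ELR ligands, differed by 0.29 (limma adjusted p = 0.188), Ccr6, that of Ccl20, by 0.27 (0.242), Ccr10 by -0.22 (0.199), Cxcr5 by -0.14 (0.36) and Ccr8 by -0.11 (0.422). The receptor and ligand sides of these pairs were measured in the same preparations, and their relation was not tested.

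Regulators of chemokine action followed no single direction. Of 12 decoy receptors, proteases and other regulators none passed, and 3 had higher and 2 lower values at an unadjusted p under 0.05. The shares of all genes were 7.02% and 6.18%. The proteases Mmp9 (0.33), Mmp8 (0.45) and Mmp2 (0.26), which can trim chemokines, had limma adjusted p-values of 0.136 to 0.198. Adam10, a sheddase of Cx3cl1 and Cxcl16, differed by -0.18 (limma adjusted p = 0.318), the scavenging receptor Ackr4 by -0.17 and the peptidase Dpp4 by 0.15. Besides Ppbp and Pf4, the relatives Mif (0.10), Cklf (0.12) and Rarres2 (0.06) did not pass.

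Signalling genes behind the receptors numbered 19, of which none passed and 4 had higher and 0 lower values at an unadjusted p under 0.05. All 19 lay at or above the median signal, where 10.8% of genes were higher and 2.81% lower at that level. The largest difference was in Rgs18, a regulator of G protein signalling, at 0.85 (SE 0.16, limma adjusted p = 0.136), followed by Rgs1 (0.26), the kinase Pik3cg (0.20) and the receptor kinase Grk6 (0.16). Vav1 and Prex1, exchange factors for Rac, differed by 0.11 and 0.09.

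Genes of pathways that induce chemokines were split by pathway. A list may hold targets of its pathway as well as inducers. Of 11 measured genes of the NF-kB route none passed the adjusted test and 3 had higher values at an unadjusted p under 0.05, led by Tnf (0.32, limma adjusted p = 0.167) and Il1b (0.20, 0.199) and followed by Nfkbiz (0.15) and Relb (0.12), while Il1a (-0.12) and Il6 (-0.52, SE 0.35) had lower values. All but 1 of the 11 lay at or above the median signal, where 10.8% of genes were higher and 2.81% lower at that level. Of 7 interferon genes 1 was higher at that level, Irf1 (0.21, limma adjusted p = 0.368), beside 7.02% of all genes. Irf7 differed by 0.18, Ifnb1 by -0.14, Ifng by 0.02 and the receptors Ifngr1 and Ifnar1 by -0.01 each. Of 8 genes of the IL-4 route none reached that level, with Chil3 at -0.09, Mrc1 at -0.10, Arg1 at -0.08, Il13ra1 at 0.07, Retnla at 0.04 and Stat6 at -0.03.

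Markers of other cells are described next, neutrophils and dividing cells first. Whether any of them varied with Cxcl2 from array to array was not tested. Of 10 neutrophil markers 2 passed, S100a8 (0.77) and Ltf (0.54), and 7, Cxcr2 among them, had higher values at an unadjusted p under 0.05. Their mean log2 signal ran from 8.25 to 8.46 on the naive-donor arrays and from 8.68 to 8.83 on the UV-donor arrays, while the granule genes Elane, Mpo and Camp lay below the median signal and differed by -0.03, 0.04 and -0.02. All 7 markers of dividing cells had higher values at an unadjusted p under 0.05, led by Aurka (0.53) and Prc1 (0.62), with list means of 9.87 to 10.20 against 10.38 to 10.83, and none passed. The part of these cells in the Cxcl2 signal was not tested.

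Among markers of eosinophils, the cells drawn by the CCR3 ligands, Epx rose by 0.40 (limma adjusted p = 0.0479) and Prg2 differed by 0.75, both from dim signals. Ccr3, the receptor of these cells and dimmer still (mean 5.83), differed by 0.00. Platelet markers, to which Ppbp and Pf4 themselves belong, were higher at an unadjusted p under 0.05 for these 2 genes only of 4, with Itga2b at 0.07 and Gp9 at 0.04. Of 8 macrophage markers 4 were higher and 1 was lower at that level, with C1qb called (0.63), Cd5l at -1.0 and C1qa at 0.17. Of 5 monocyte markers 2 were higher at that level, F13a1 (0.50, limma adjusted p = 0.259) and Ms4a6c (0.84, SE 0.36, limma adjusted p = 0.362). In value 3 of the 5 were higher and 2 lower, with a median difference of 0.039. Of 8 dendritic cell markers 1, Cd209a, was called (0.59). The others differed by -0.04 (Itgax) to 0.11 (H2-Eb1), with Zbtb46 at 0.05 and Ccr7 at 0.04.

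Progenitor markers, 2 of 5 higher at an unadjusted p under 0.05, were led by Cd34 (0.76) and Gata2 (0.12), with Kit at 0.19, Myb at 0.03 and Flt3 at 0.06, and mast cell and basophil markers, all 6 below the median signal and 2 of them higher at that level, by Mcpt8 (0.24). In that list Cpa3 differed by 0.31, Ms4a2 by 0.11 and Fcer1a by -0.03. Markers of B cells (Pax5 -0.04, Ms4a1 -0.03, Cd79a 0.02, Cd22 0.01) and of T and NK cells (Cd3d 0.13, Il7r -0.10, Cd3e 0.07, Cd3g 0.03, Ncr1 -0.02, Klrb1c 0.08) held none at an unadjusted p under 0.05, and all but Il7r lay below the median signal. Of 7 stromal and endothelial markers, whose cells are a known source of Cxcl12 and Cxcl14, 1 was higher (Pecam1 0.23) and 2 lower (Col3a1 -0.19, Cdh5 -0.12), with Pdgfra at -0.02, and their list mean ran from 8.21 to 8.25 on the naive-donor arrays and from 8.19 to 8.20 on the UV-donor arrays. The part of these cells in the Cxcl14 difference was not tested.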

How the data were processed

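RNA of CD11c+ cells was hybridised to Affymetrix whole-transcript mouse arrays, 3 per group. The authors deposited log2 signals per probe set, with RMA, oligo and limma named in the submitters' processing notes without versions. Of 35556 probe sets, 21789 had 1 gene symbol in the platform annotation, 1621 several and 12146 none. All 34 members matched the RefSeq gene table by identifier. Values were used as deposited. The comparison of the groups used limma 3.58.1 under R 4.3.3 (lmFit, eBayes, two-sided, Benjamini-Hochberg over 19938 genes, call at an adjusted p under 0.05), after the script was tested on simulated data. The number of arrays limits the precision. The members and lists were chosen with earlier results of these data known. Values by array are given for members with an unadjusted p under 0.05, the 12 brightest, and those with non-overlapping groups differing by at least 0.2. Cxcl1 was added after its values were seen. Of other lists, differences are given for the 6 (pathway) or 2 (marker) genes of smallest p and for dim markers. The dendritic cell markers were added after their values were seen. List genes not matched in the annotation were not analysed here. Alternatives were the replicate block, filters, scalings, priors, weights, probe set choices, another threshold and leaving out each array.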

Additional observations from a re-analysis of the deposited data

How the results depend on the processing

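No chemokine ligand was called at an adjusted p under 0.05 under any alternative run (limma), and Cxcl2 was the 1 ligand below 0.10. Its limma adjusted p ran from 0.0546 (array medians centred) to 0.389 (all probe sets tested together) without leaving out arrays. The count of all called genes, 23, was 15 with quantile normalization, 43 with an intensity trend and robust prior, 61 at an adjusted p under 0.10, 0 with all probe sets tested together, and 0 to 13 with single arrays left out (13 without UV-donor replicate 1, 1 without naive-donor replicate 1 or UV-donor replicate 3, and 0 without any of the other three). At an unadjusted p under 0.05, 7.02% of all genes were higher and 6.18% lower, and 10.8% and 2.55% with array medians centred. Ligands lower at that level, 5, numbered 3 and 1 when genes below the 30th and 50th percentile of signal were left out, which kept 21 and 15 ligands for testing, and 4 to 7 with single arrays left out, while those higher numbered 1 to 2, with Cxcl3 added without UV-donor replicate 1. The sign changed for differences near 0. Ccl3 was 0.026 with array medians centred and 0.00066 with cyclic loess, Ccl5 was 0.017 with array medians centred, and Cx3cl1 was -0.044 with quantile normalization and -0.019 with cyclic loess. With single arrays left out Ccl3 ran from -0.042 to 0.018, Ccl4 from -0.11 to 0.071, Ccl5 from -0.059 to 0.046, Cx3cl1 from -0.052 to 0.042, Ccl17 from -0.0065 to 0.016, Ccl22 from -0.00081 to 0.035 and Cxcl3 from -0.023 to 0.24. The cause was not tested. Replicate numbers did not pair the arrays, with correlations of same-numbered deviations of -0.10, -0.15 and 0.10. With the replicate block 0 genes and 0 ligands were called by limma, 1 ligand was higher and 4 were lower in value (unadjusted p under 0.05), and Cxcl2 had an adjusted p of 0.232.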
